A study of Mus musculus with 2 samples.

Results

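Amino acid transporter genes of 7 carrier families (Slc1, Slc3, Slc6, Slc7, Slc36, Slc38 and Slc43) were compared between the mouse epithelial cell lines Mlesico and Mle29c. Members were the probe sets whose single gene symbol in the array annotation falls in these families, with Slc7a11 and Slc38a4 left out by the rule, which gave 114 of 45101 probe sets and 56 of 18193 named genes. The series title names miR-29c and pulmonary fibrosis, and each line had 1 array. Both lines grew in DMEM with serum and received no treatment in the labels, which do not say how either line was made, whether it is 1 clone, or in which direction the level of miR-29c differs between them. With a single array a line, the spread of replicates is unknown, and the differences below carry no test.

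Amino acids cross the plasma membrane on carriers that differ in substrate and in the ion that drives them. Sodium-coupled carriers of the Slc1, Slc6 and Slc38 families concentrate glutamate, glutamine, glycine and related substrates in the cell. Exchangers of the Slc7 family, most of them paired with a heavy chain of the Slc3 family, trade amino acids held inside for others outside. The Slc36 family includes carriers driven by protons, and some members work at the lysosome, where amino acids are also reported to the growth kinase mTORC1. In lung epithelium such carriers are known for supplying protein synthesis and for clearing amino acids from the airway surface.

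The microRNA of the series title is shown with the other mature members of its family, because they share the seed (bases 2 to 8, in capitals) by which targets are recognised. Sequences are from RefSeq, build GRCm38.p6. Mature miR-29c-3p lies at chr1:195037600-195037621 on the plus strand and miR-29a-3p at chr6:31062673-31062694 on the minus strand. Mature miR-29b-3p is listed at 2 genes, one of them at chr1:195037091-195037113 on the plus strand.
mmu-miR-29c-3p: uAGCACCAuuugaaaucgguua
mmu-miR-29a-3p: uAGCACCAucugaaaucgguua
mmu-miR-29b-3p: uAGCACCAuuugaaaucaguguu
All 3 have the seed AGCACCA. Matches to it in the members were not looked for, as untranslated regions were not used here.

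The deposited values are logarithms, taken as log2, that the authors centred on the midpoint of both arrays for each probe set, so the value in Mlesico is the mirror image of that in Mle29c. The log2 ratio below is Mle29c minus Mlesico, and a positive ratio is a higher signal in Mle29c. Because centring removed the signal level, a level class was read from the rounding of the numbers: high for a mean log2 level of 8 or more, middle for 4 to 8, and low below 4. A class that follows from the sum of both values is the firmer kind. One read from the rounding step is a ceiling, since a number stored in fine steps can fall on a coarse one by chance. Of the 114 member probe sets, 42 were classed high, of which 12 followed from the sum, 44 middle, 27 low and 1 had the same value on both arrays. Genes with at least 1 high or middle probe set are called measured, and a gene's value is the median over those. This left 86 probe sets of 44 genes. The remaining 12 genes had low probe sets only. On the whole array, another 123 probe sets had values printed too coarsely to be classed, with a median size of 0.0011. They were counted as measured in the array's shares, and none of them belongs to a member.

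The spread of ratios differed by class. Among member probe sets in the low class, 59.3% of 27 differed by 2-fold or more, against 58.2% of 10998 low probe sets on the whole array. In the middle class the shares were 18.2% of 44 members and 22.7% of all. Of the 12 members classed high from the sum, 1 was at least 2-fold higher and 1 at least 2-fold lower, against 2.92% and 2.49% of the 6237 such probe sets on the array that name a gene. Different probe sets of a member gene had a pooled SD of 0.65 in log2 ratio (21 genes had at least 2 that were measured), and the SD was 0.62 over 6921 such genes of the array. This SD is a spread between different probe sets of the same gene, not between replicates, and leaves out differences between cultures.

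**Figure D1:**
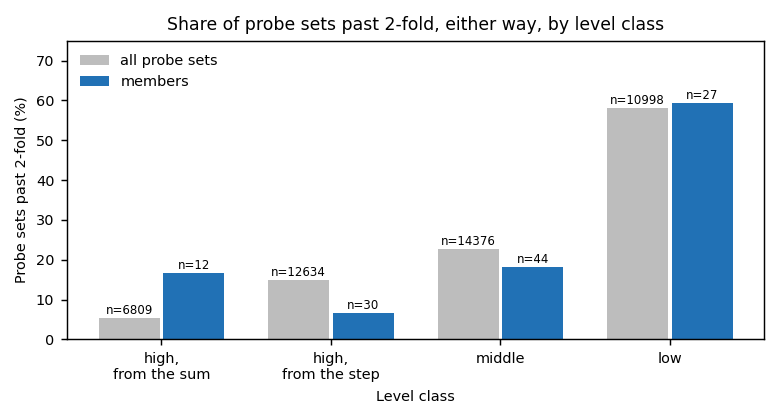
Bars give the percentage of probe sets that differ by 2-fold or more in either direction (vertical axis, from 0) by level class, in grey for the whole array and in blue for the members, with the number of probe sets above each bar. The low class stands far above the others in both sets, at 58.2% and 59.3%.

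Epithelial identity was checked with 12 markers, 11 of which were measured, 3 of them past 2-fold upward in Mle29c and 2 past 2-fold downward. The higher ones were Sftpb (2.13), Sftpc (1.66) and Cdh1 (1.46), and the lower ones Esrp1 (-4.51) and Krt7 (-1.20). The keratin genes Krt8, Krt18 and Krt19 were measured at log2 ratios of 0.63, -0.20 and -0.063, and Epcam, an epithelial adhesion molecule, at -0.52. Cldn4 had a low probe set only. Of markers for other cells, Ptprc (leukocytes), Pecam1 (endothelium), Pdgfrb (fibroblasts) and Gad1 (neurons) had low probe sets only. Past 2-fold upward in Mle29c were Vwf (endothelium, 1.40) and Laptm5 (leukocytes, 1.02, with probe sets from -1.60 to 2.06). Past 2-fold downward were Col1a1 (fibroblasts, -3.41), Tek (endothelium, -1.57) and the neuronal markers Snap25 (-1.58) and Tubb3 (-1.49). The other measured ones lay within 2-fold. In all, 4 of 5 leukocyte, 4 of 5 endothelial, 5 of 6 fibroblast and 5 of 6 neuronal markers on the array had a probe set above the low class, so the class is a permissive floor and does not by itself show that a gene is expressed. No detection calls were used here.

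Of the 44 measured transporter genes, 5 had a signal higher by 2-fold or more in Mle29c, none was lower by as much, and 39 lay within 2-fold. The 5 were Slc7a13, Slc7a4, Slc6a7, Slc7a2 and Slc1a3. Across the array, 8.39% of 14853 measured genes were higher by this much and 7.17% lower; among the members the shares were 11.4% and 0%, so the higher share lies near the background. The median over the member genes was 0.041, with 23 above 0 and 21 below, beside 0.0039 over all genes. The median size of the log2 ratio, sign ignored, was 0.42 in the members and 0.36 over all genes. With low-class probe sets kept too, 10 of 56 genes were at least 2-fold higher and 4 lower, against 12.4% and 10.9% of 18193. By probe set, 10 of 86 were at least 2-fold higher and 2 lower, against 7.91% and 7.3% of the 27332 measured probe sets that name a single gene. Where a gene had 2 or more measured probe sets, all of them lay on the same side of 0 in 9 of 21 genes: 5 above and 4 below. The same share over all genes of the array was not computed, so whether this count is usual cannot be told.

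**Figure D2:**
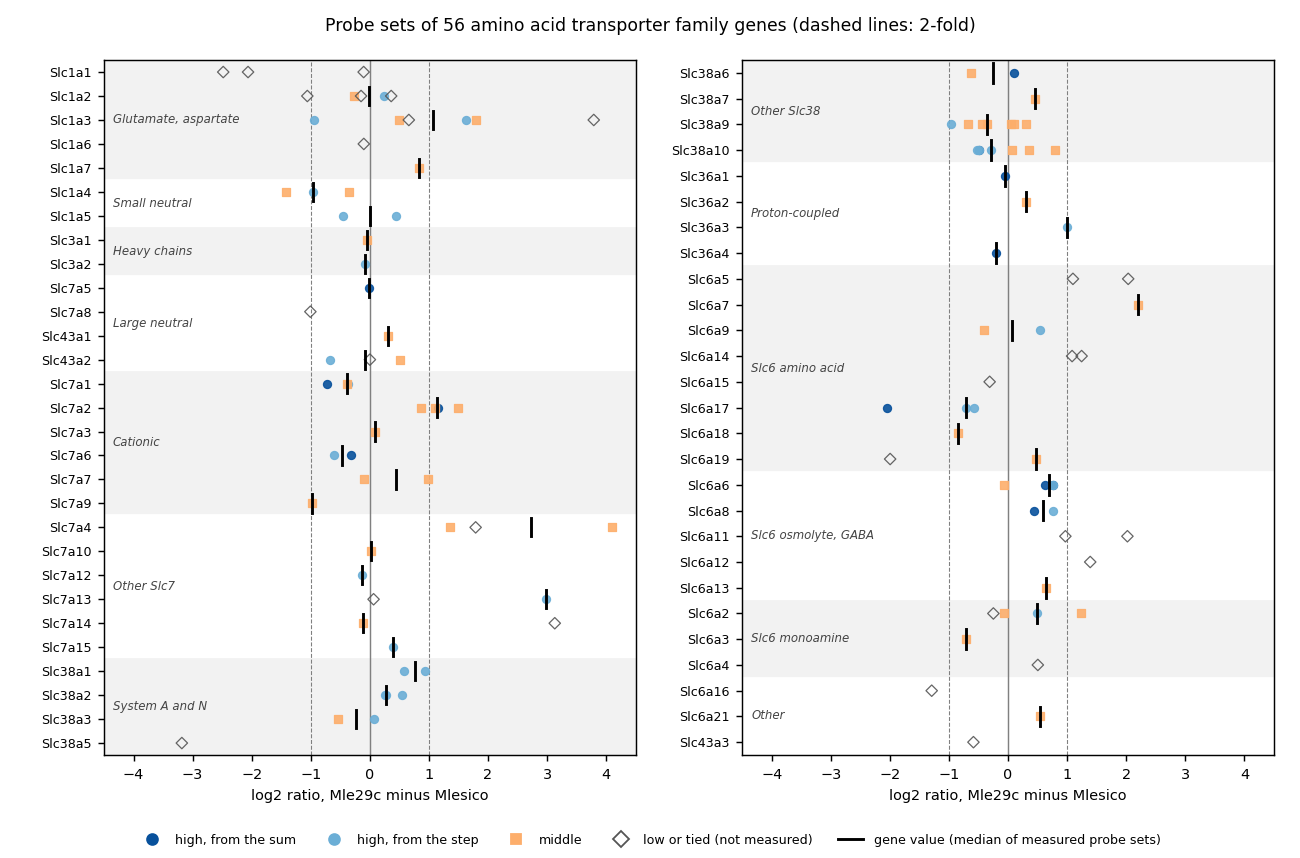
Each point is 1 probe set of a member gene, at its log2 ratio of Mle29c minus Mlesico (horizontal axis), with genes in rows ordered by substrate group, colour and shape giving the level class, and a black bar the gene value. Most bars lie between the dashed lines at 2-fold; those of Slc7a13, Slc7a4 and Slc6a7 stand beyond 2 on the log2 scale, and open symbols (low class) scatter more widely.

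Of 6 cationic amino acid carriers and exchangers, 1 was at least 2-fold higher in Mle29c, and the group's median was -0.15. It was Slc7a2. This gene, which encodes CAT2, an arginine and lysine carrier known for feeding nitric oxide synthesis and arginase, had its 4 probe sets above 0, at 0.86, 1.10, 1.15 and 1.49. Its value was 1.13, a 2.19-fold higher signal in Mle29c. The probe set at 1.15, classed high from the sum, had centred values of -0.58 in Mlesico and 0.58 in Mle29c, which puts the log2 level at 7.42 or more and 8.58 or more. The other 3 were in the middle class, also from the sum.

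Slc7a1 encodes CAT1, the cationic carrier of most dividing cells. Its 3 probe sets lay at -0.73, -0.38 and -0.38, all on the opposite side of 0 from those of Slc7a2, and all within 2-fold. Slc7a3, the related CAT3, stood at 0.090 from 1 middle-class probe set. Among exchangers of cationic for neutral amino acids, Slc7a6 (y+LAT2) had probe sets at -0.62 and -0.32, and Slc7a7 (y+LAT1) at 0.98 and -0.098. Slc7a9, the light chain that carries cystine and dibasic amino acids, stood at -0.98 from 1 middle-class probe set, just inside 2-fold.

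The heavy chains were close to 0. Slc3a2, which encodes the CD98 heavy chain that brings most Slc7 light chains to the membrane, stood at -0.082 from 1 probe set classed high from the step. Slc3a1, the rBAT chain that pairs with Slc7a9, stood at -0.045 in the middle class. Neither line had the higher signal by more than 1.06-fold for either chain.

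Large neutral amino acids enter with Slc7a5, the LAT1 light chain that exchanges glutamine for leucine and aromatic amino acids. Its single probe set, classed high from the sum, stood at -0.021, with centred values of 0.010 in Mlesico and -0.010 in Mle29c. Slc43a1 (LAT3) stood at 0.30 in the middle class. Slc43a2 (LAT4) had probe sets at 0.51 and -0.68 on opposite sides of 0, and one that was equal on both arrays. Slc7a8 (LAT2) had 1 low-class probe set at -1.01. None of the 3 measured genes of this group was past 2-fold.

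Neither of the 2 small neutral exchangers was past 2-fold, and their probe sets overlapped. Slc1a5, which encodes ASCT2, the glutamine exchanger that works beside LAT1, had probe sets at 0.44 and -0.45, both classed high from the step, and a value of -0.0051. Slc1a4, which encodes ASCT1, a carrier of serine, alanine and threonine, had all 3 probe sets below 0, at -1.41, -0.96 and -0.36. Its value of -0.96, a 1.94-fold lower signal in Mle29c, fell short of 2-fold. Slc1a4 lies on chromosome 11, where the median over 1210 measured genes was -0.25; its part in this value was not tested.

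Glutamate and aspartate carriers gave uneven readings. Slc1a3, which encodes GLAST, had measured probe sets at 1.79, 1.63, 0.50 and -0.94, and a value of 1.06 (2.09-fold). The 2 of them classed high, both from the step, were the ones at 1.63 and -0.94, and high-class probe sets alone put the gene at 0.34, inside 2-fold, as did the mean of all 4, at 0.74. Its 2 low-class probe sets stood at 0.66 and 3.79. Slc1a3 lies on chromosome 15, where 582 measured genes had a median of 0.36, and it fell inside 2-fold once set against that median. Slc1a2 (GLT-1) was at -0.014 with measured probe sets at -0.27 and 0.24, and Slc1a7 (EAAT5, known from the retina) at 0.82 from 1 middle-class probe set. Slc1a1, which encodes EAAC1, the epithelial glutamate and cysteine carrier, had low-class probe sets only, at -0.11, -2.06 and -2.48. Slc1a6 (EAAT4) had 1 low-class probe set at -0.10.

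Carriers of system A and N move glutamine and other short neutral amino acids with sodium, and none of the 3 measured was past 2-fold. Slc38a1 (SNAT1) stood at 0.75, with probe sets at 0.93 and 0.58, and Slc38a2 (SNAT2), the form induced by amino acid shortage, at 0.28, with probe sets at 0.54, 0.28 and 0.26. All 5 probe sets lay above 0, were classed high from the step, and were within 2-fold. Both genes are neighbours on chromosome 15 with no other coding gene between them, and set against the chromosome's median of 0.36 they were on opposite sides of it. Slc38a3 (SNAT3), a system N carrier, had probe sets at 0.069 and -0.54. Slc38a5 (SNAT5) had 1 low-class probe set, at -3.18.

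Other Slc38 members include carriers of the lysosome. Slc38a9, which senses arginine there and signals to mTORC1, had 7 probe sets from -0.97 to 0.30 and a value of -0.36; its single high-class probe set, from the step, was the lowest. Slc38a7, a lysosomal glutamine carrier, stood at 0.45 in the middle class. Slc38a10 had 7 probe sets between -0.52 and 0.80 with a value of -0.28, and Slc38a6 had 2, at 0.11 and -0.62. None of these 4 genes was past 2-fold, and 3 of 4 were below 0.

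In the Slc36 family, Slc36a1 (PAT1), which exports small amino acids from the lysosome, stood at -0.055. Slc36a4 (PAT4) stood at -0.20, and each of these values came from 1 probe set classed high from the sum. Slc36a3 stood at 0.998, just under 2-fold, from 1 probe set classed high from the step, and Slc36a2 (PAT2), a glycine and proline carrier of kidney, at 0.30. Slc36a1, Slc36a2 and Slc36a3 are neighbours on chromosome 11, whose median was -0.25.

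The remaining Slc7 members held the 2 highest gene values among the 44 measured. Slc7a13, an aspartate and glutamate carrier known from kidney, stood at 2.97, a 7.85-fold higher signal, from 1 probe set classed high from the step, whose centred values were -1.49 and 1.49. Its other probe set, in the low class, stood at 0.062. Slc7a4, a relative of the cationic carriers for which transport is not established, had 2 measured probe sets at 1.36 and 4.10, both in the middle class from the sum, and a value of 2.73 (6.62-fold). The probe set at 4.10 is of the kind whose probes match more than 1 transcript. Its class places the log2 level between 1.95 and 5.95 in Mlesico and between 6.05 and 10.05 in Mle29c. Its remaining probe set, in the low class, was at 1.79 and is of a kind whose probes may also match other sequences. Probe sets of these less specific kinds also include those of Slc38a1 at 0.58, Slc7a7 at -0.098 and Slc1a3 at 3.79. Some probe sets of Slc38a9 and Slc38a10 are of such a kind too. Slc7a10 (0.018), Slc7a12 (-0.14), Slc7a14 (-0.11) and Slc7a15 (0.39) were within 2-fold, each from 1 measured probe set. A low-class probe set of Slc7a14 stood at 3.13.

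Amino acid carriers of the Slc6 family are best known from brain, kidney and gut. Slc6a7, which encodes the brain proline carrier PROT, stood at 2.20 (4.60-fold) from 1 middle-class probe set read from the step, with centred values of -1.10 and 1.10. Slc6a17 (NTT4), a carrier of neuronal vesicles, had all 3 probe sets below 0. The one classed high from the sum was at -2.05, with log2 levels of at least 9.02 in Mlesico and at least 6.98 in Mle29c. The others were at -0.70 and -0.58, so the gene value of -0.70 was within 2-fold. Slc6a9, the glycine carrier GlyT1, had probe sets at 0.54 and -0.41. Slc6a18 and Slc6a19 (B0AT1), neutral carriers of kidney and gut that are neighbours on chromosome 13, stood at -0.85 and 0.46, each from 1 measured probe set, and a low-class probe set of Slc6a19 at -2.00. Slc6a14, which encodes ATB0,+, the broad carrier of airway epithelium, had 2 low-class probe sets at 1.08 and 1.24. Slc6a5 (GlyT2) had low-class probe sets at 1.10 and 2.03, and Slc6a15 had 1 at -0.31.

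Slc6 carriers of osmolytes, creatine and GABA were all above 0 where measured, and none reached 2-fold. Slc6a6, the taurine carrier TauT, had probe sets at 0.76, 0.77, 0.62 and -0.066 and a value of 0.69 (1.61-fold); the values at 0.77 and 0.62 were classed high from the sum, and the one at -0.066 middle. Slc6a8, the creatine carrier, stood at 0.60, with probe sets at 0.44 (high from the sum) and 0.76. Slc6a13 (GAT2) stood at 0.64 in the middle class. Slc6a6 and Slc6a13 lie on chromosome 6, where 773 measured genes had a median of 0.32, and Slc6a8 on chromosome X, with a median of -0.12. The part of the chromosome in these values was not tested. Slc6a11 (GAT3), at 2.02 and 0.97, and Slc6a12 (BGT1, the betaine carrier), at 1.39, had low-class probe sets only.

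Monoamine carriers share the Slc6 fold and take up monoamine neurotransmitters. The noradrenaline carrier gene Slc6a2 stood at 0.50, with measured probe sets at 1.23, 0.50 and -0.074 and a low-class one at -0.25. Slc6a3, the dopamine carrier, stood at -0.71 in the middle class, and Slc6a4, the serotonin carrier, had 1 low-class probe set at 0.50. Slc6a21 stood at 0.55 in the middle class. Slc6a16 and Slc43a3, a carrier of nucleobases, had single low-class probe sets at -1.29 and -0.59. Over all 27 low-class member probe sets, 9 were at least 2-fold higher and 7 at least 2-fold lower, which is 33.3% and 25.9%, beside 30.2% and 28% of the 7508 low-class probe sets of the array that name a single gene.

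**Figure D3:**
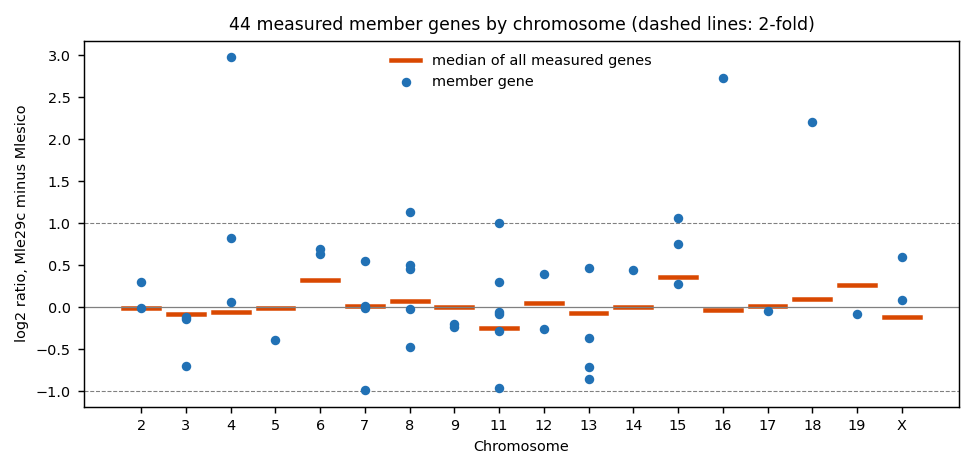
Blue points are the 44 measured member genes at their log2 ratio of Mle29c minus Mlesico (vertical axis), by chromosome (horizontal axis), and orange bars the median of all measured genes on that chromosome. The 3 members on chromosome 15 and the 2 on chromosome 6 lie above 0, where the bars also lie above 0, at 0.36 and 0.32, and 4 of 6 members on chromosome 11 lie below 0 with a bar at -0.25, whereas on chromosome 19 (bar at 0.27) the member lies at -0.082 and on chromosome X (bar at -0.12) both lie above 0.

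By position, all 3 measured members on chromosome 15 and both on chromosome 6 were above 0, and 4 of 6 on chromosome 11 were below. The medians of all genes there were 0.36, 0.32 and -0.25. Members did not follow the median on every chromosome: on chromosome 19, with a median of 0.27, the single member Slc3a2 was at -0.082, and on chromosome X, with a median of -0.12, both members were above 0, as were all 3 on chromosome 4, with a median of -0.060. With chromosome medians subtracted from every gene, Slc7a13, Slc7a4, Slc6a7 and Slc7a2 kept 2-fold or more, at 3.03, 2.76, 2.10 and 1.06, Slc1a3 did not, and Slc36a3 (1.24) and Slc7a9 (-1.001) passed it.

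Promoters were searched for the motif TGATGNAA and its reverse TTNCATCA, the core of the C/EBP-ATF response element through which Atf4 is known to act on carrier genes in amino acid shortage. A promoter from RefSeq (GRCm38.p6), 250 bases before to 50 after a gene's start, was matched for 39 of 56 members. The motif was found in 3 of these genes, Slc1a4, Slc7a7 and Slc6a21. Some genes have several windows, and 4 of 58 member windows held it, 6.9% against 3.97% of 32851 windows of all genes. These 4 windows come from only 3 genes, because a single site of Slc7a7 was counted in overlapping windows. Overlapping windows were not merged in either share, and the difference between the shares was not tested. The motif is shown in capitals within 30 bases for the members whose searched windows hold it. Members without a matched promoter, and sequence outside the windows, were not searched. Slc1a4 is read from chr11:20332699-20332728 on the minus strand, Slc7a7 from chr14:54417927-54417956 on the minus strand and Slc6a21 from chr7:45282834-45282863 on the plus strand.
Slc1a4: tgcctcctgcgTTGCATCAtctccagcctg
Slc7a7: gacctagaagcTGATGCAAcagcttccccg
Slc6a21: agaggtgagaaTTACATCAagtgggcctcc
The gene values were -0.96 for Slc1a4, 0.44 for Slc7a7 and 0.55 for Slc6a21, on both sides of 0. A match describes the letters only. Slc7a7 also held TGATGAAA in a window, and the TGATGCAA shown for it lies in overlapping windows of that gene.

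Genes that answer amino acid shortage through the kinase Gcn2 and the factor Atf4 had a median of -0.018, and 1 of 19 was at least 2-fold higher and none lower. The one past 2-fold was Stc2, which encodes stanniocalcin 2, at 1.67 with probe sets from 0.90 to 1.69. Atf4 itself stood at 0.61 and Asns, the asparagine synthetase gene, at 0.29, while Ddit3 was at -0.47, Chac1 at -0.20 and Trib3 at -0.018. Of the 19 genes, 9 were above 0. The lowest was Vldlr at -0.99, with probe sets from -1.93 to -0.58.

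Genes by which mTORC1 senses amino acids had a median of 0.087, with 3 of 30 at least 2-fold higher and none lower. Sesn3, a sestrin that restrains mTORC1, stood at 1.52 with both probe sets within 0.02 of each other, at 1.51 and 1.53. Fnip2, a partner of folliculin, was at 1.36 from 1 probe set, and Castor2, a relative of the arginine sensor Castor1, at 1.005 with probe sets from 0.89 to 1.02. Rptor, the raptor subunit, was lowest at -0.62, with probe sets at -1.12 and -0.11.

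Amino acid carriers of other families had a median of 0.23, and 1 of 17 was at least 2-fold higher and 1 lower. Slc15a2, the peptide carrier PEPT2 of lung and kidney epithelium, stood at -3.95, but its 3 probe sets ran from -4.71 to 0.093. Slc17a6, a vesicular glutamate carrier, stood at 1.53 from 1 measured probe set. Of membrane partners and regulators, 1 of 7 was at least 2-fold higher, the arrestin Arrdc3 at 1.05, with the ubiquitin ligase gene Nedd4l lowest at -0.31. All of these shares stand beside the array's 8.39% higher and 7.17% lower.

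**Figure D4:**
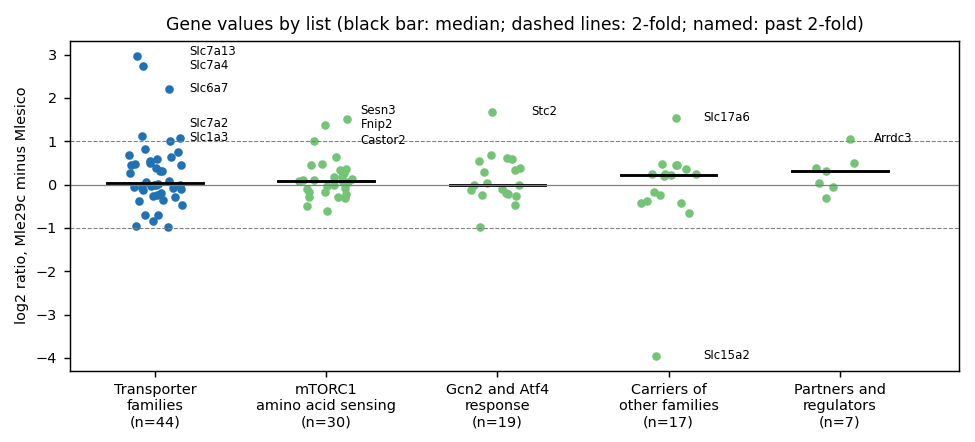
Points are measured genes at their log2 ratio of Mle29c minus Mlesico (vertical axis), in columns for the transporter families and 4 lists of related genes, with black bars for the medians and names for genes past 2-fold. The medians lie between -0.018 and 0.32, and Slc15a2, at -3.95, is the only named gene below 0.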

How the data were processed

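RNA of 2 cell lines was measured on 1 array each. The deposited file holds log values, read as log2. MAS5 is named in the submitters' processing notes, with version and scaling not given in the sources used here. These values show that the authors centred each probe set, since both sum to 0 within 1e-06. A natural log is not excluded; base 10 would make the widest ratio 2.09e+10-fold.

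Gene names came from the platform annotation of 2016: 34945 list 1 gene, 932 several and 9160 none here, besides 64 controls. Symbols were updated by gene number for 34741 of them through GRCm38.p6.

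Level classes came from the sum of both values, or else from the rounding step. A check on simulated data required a set accuracy only of the high and middle classes from the sum. It does not vouch for classes from the step. The lists and members were chosen with earlier results of these data known. Named were members past 2-fold, the extremes of each group and a set of preset genes; the others follow because each member is accounted for. The number of arrays limits the precision. Alternatives covered the floor, class, gene value, threshold, log base and chromosome. No column of values was left unused. Python 3.11.15, numpy 2.4.6, pandas 2.3.3 and matplotlib 3.10.9 were used.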

Additional observations from a re-analysis of the deposited data

How the results depend on the processing

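Counts depended on the probe sets kept. Member genes at least 2-fold higher numbered 10 with every probe set kept, 2 in the high class alone, 3 with the class from the sum, 4 with means, 5 against chromosome medians (Slc36a3 in place of Slc1a3), 11 at 1.5-fold, 3 at 4-fold, 8 with values read as natural logs, and 1 (Slc7a4) when each of 2 or more probe sets had to pass, a rule chosen after the data were seen. Those at least 2-fold lower numbered 4 with every probe set kept, 1 with the class from the sum, 1 with means, 1 against chromosome medians, and 5 both at 1.5-fold and as natural logs. With the class from the sum, and with means, the lower gene was Slc6a17, at -2.05 and -1.11. Within 1.5-fold lay 63.6% of the measured members and 68.3% of all measured genes. Array shares with every probe set kept are given above. For the other settings the shares over all genes were not computed, so these counts describe the members only. The median of all members was -0.064 with the class from the sum and 0.14 against chromosome medians. Group medians also moved. With every probe set kept, glutamate carriers stood at -0.10 and other Slc7 members at 0.95. In the high class, glutamate carriers stood at 0.29, cationic carriers at -0.47 and monoamine carriers, from Slc6a2 alone, at 0.50. With the sum-based class, medians were 0.44 for glutamate carriers, 1.31 for other Slc7 members and -0.85 for Slc6 amino acid carriers. System A and N then stood at -0.54, from Slc38a3 alone. Against chromosome medians, system A and N stood at -0.081. The cause was not tested. Fewer genes enter some settings by construction. Of the single genes, those that moved by more than the SD between probe sets were 4 of 44 with every probe set kept, 1 of 27 in the high class and 1 of 30 with the class from the sum, and none of 44 with means or against chromosome medians. No called gene changed sign where it had a value; in the high class Slc6a7 and Slc7a4 had none, and with the class from the sum Slc6a7 and Slc7a13 had none. Slc1a3 lost its call in the high class, with means and against chromosome medians. No paired analysis was possible because each line has 1 array.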

Other observations

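The Slc6a20 genes of mouse have symbols that end in a letter, so the rule does not take them. Slc6a20a had 1 probe set at a log2 ratio of 2.34, in the middle class from the step. Slc6a20b had 2, at 0.54 and -1.21, both in the middle class and on opposite sides of 0. Among RNAs from the opposite strand of carrier genes, Slc36a1os stood at -1.26 in the middle class while Slc36a1 itself was at -0.055, and Slc7a6os had probe sets at 0.17 and -0.22, both classed high.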
